A study of Komagataella pastoris with 6 samples.

Results

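The genes described here are 5 transporter genes of Pichia pastoris, the homolog of the Saccharomyces cerevisiae lactate transporter gene JEN1 (PAS_chr3_0440), 3 homologs of the S. cerevisiae acetate transporter gene ADY2 (PAS_chr1-1_0378, PAS_chr2-1_0874 and PAS_chr1-1_0418) and a further gene annotated as an acetate transporter (PAS_chr2-1_0649). They were taken by identifier from the study's list of selected genes, and 5 of 5 were found among the 5040 genes of the count table. The study put all of them in that list as upregulated in these same libraries, so their shared direction is not independent evidence.

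Messenger RNA was sequenced from 3 cultures of each of 2 strains, KM71-LpDLDH, called the control strain below, and KM71-ScFlo1-LpDLDH, called the flocculation strain. Both derive from the laboratory strain KM71 and carry LpDLDH, a d-lactate dehydrogenase gene of Leuconostoc pseudomesenteroides, so both make d-lactic acid. The flocculation strain also carries ScFLO1, the gene of an S. cerevisiae cell surface lectin that makes cells clump. In both strains the constitutive glyceraldehyde-3-phosphate dehydrogenase promoter drives the added genes. The strains differ in the ScFLO1 plasmid and its selection marker as well as in ScFLO1 itself, and these cannot be told apart here. Cultures were inoculated to OD600 0.05 in the glycerol-based minimal medium MGYH and were collected after about 21 h at 30 °C and 250 rpm. Added lactic acid is not named for these cultures. All 5040 rows of the table carry P. pastoris identifiers, so the reads of ScFLO1 and LpDLDH were not analysed here.

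Lactate and acetate leave or enter a yeast cell as anions only through carrier proteins. In S. cerevisiae, Jen1 is a proton-coupled carrier of lactate and pyruvate that is repressed by glucose and made on non-fermentable carbon sources. Ady2, also called Ato1, belongs to a separate family of small membrane proteins that carry acetate with protons, and its relatives Ato2 and Ato3 have been linked to the export of ammonium. In P. pastoris the roles of the 5 genes rest on annotation by homology, and 1 of them, PAS_chr1-1_0378, is annotated as a putative exporter of ammonia.

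Library totals ran from 10386352 to 12767753 reads on genes. Levels are given as CPM, reads scaled to a library of 1000000, after TMM scaling, a correction for differences in library composition. The Pearson correlation of log2 CPM between libraries, taken over genes that are themselves no replicates, was 0.992 for each pair within the control strain, 0.982 to 0.995 within the flocculation strain and 0.867 to 0.889 across the strains. The methods describe triplicate cultures but do not say whether each had its own overnight culture, so p-values measure the spread between these cultures. The pair of flocculating cultures that correlated least was replicates 1 and 3. Some results below are also given without replicate 3 of the flocculation strain.

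All 5 genes had a higher scaled level (CPM) in every culture of the flocculation strain than in any culture of the control strain, and 4 of them rose by more than 2-fold. Of all 5029 tested genes, 35.3% were higher without overlap between the strains and 8.41% rose at both thresholds, which are 0.05 for the adjusted p and 2 for the fold change. In either direction 16.4% passed both. At the adjusted p alone 5 of the 5 genes were higher, against 32.6% of all tested genes. The median log2 fold change of the 5 genes was 1.19, against 0.02 for all tested genes. The plot of levels by culture shows the shift for each gene and how the cultures of the flocculation strain spread.

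**Figure D1:**
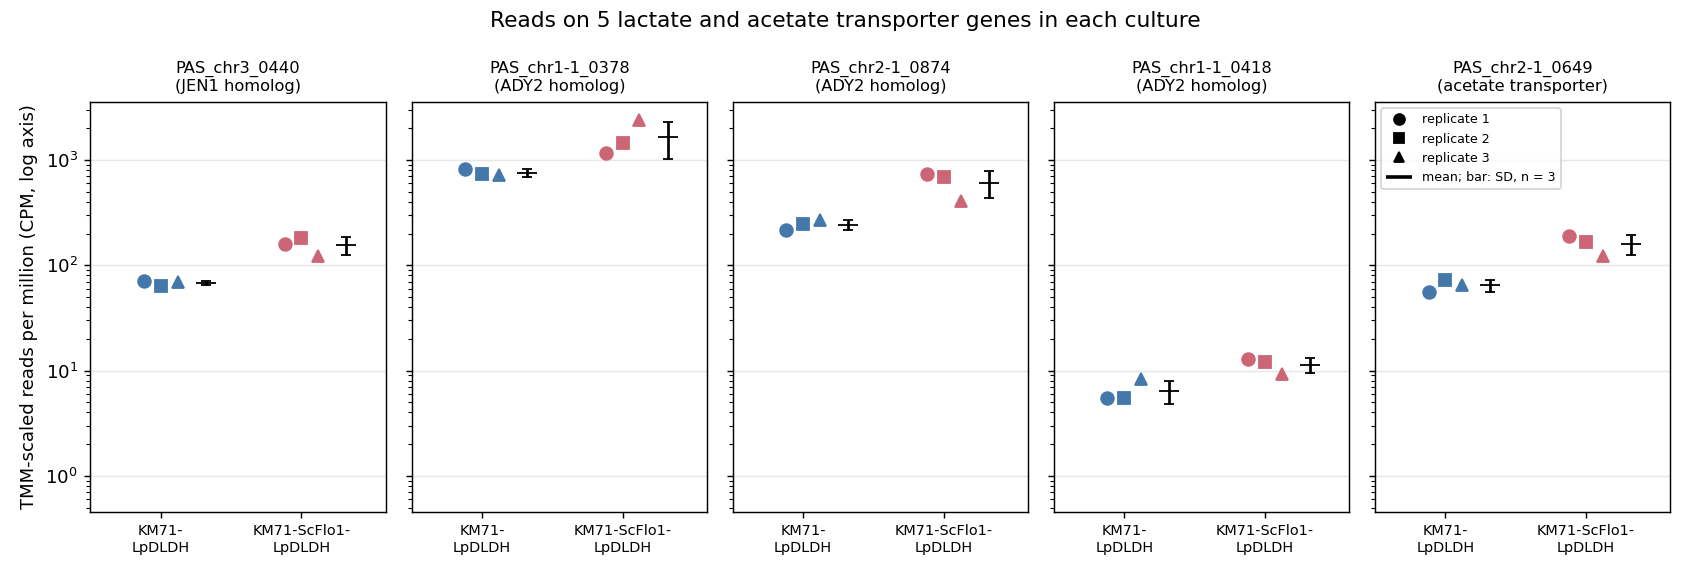
TMM-scaled CPM (log axis) of the 5 genes in each of the 3 cultures of KM71-LpDLDH (blue) and of KM71-ScFlo1-LpDLDH (red), with symbols for the replicate number and a bar for the mean and SD (n = 3). The strains do not overlap in any gene, and replicate 3 of KM71-ScFlo1-LpDLDH is the highest of its strain for PAS_chr1-1_0378 and the lowest for the other 4.

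The JEN1 homolog PAS_chr3_0440, annotated as a lactate carrier, had 70.5, 64.2 and 69.3 CPM in replicates 1, 2 and 3 of the control strain. In replicates 1, 2 and 3 of the flocculation strain it had 160, 183 and 123 CPM. The lowest flocculating culture was thus 1.74 times the highest control culture. The control mean was 68.0 ± 3.37 CPM and the flocculating mean 155 ± 30.4 CPM (SD, n = 3), giving a fold change of 2.28 and a log2 fold change of 1.19 with a standard error of 0.17. The adjusted p was 2.91e-05 in edgeR's quasi-likelihood fit, adjusted by the Benjamini-Hochberg method over all tested genes. Between control cultures this gene was the steadiest of the 5, with a coefficient of variation of 4.96%, where counting alone gives 3.49% to 3.52% for each library. Without replicate 3 of the flocculation strain its log2 fold change was 1.33.

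The ADY2 homolog PAS_chr1-1_0378, the putative ammonia exporter, took the most reads of the 5 genes in all 6 libraries. It had 825, 729 and 714 CPM in the control cultures and 1167, 1442 and 2370 CPM in replicates 1, 2 and 3 of the flocculation strain. The flocculating cultures were spread widely, with replicate 3 the highest, and none overlapped the control cultures. The mean (SD, n = 3) went from 756 ± 60.1 to 1660 ± 630 CPM, a log2 fold change of 1.13 with a standard error of 0.31 and an adjusted p of 0.00123 by the same edgeR test. Without replicate 3 of the flocculation strain the log2 fold change was 0.78, a fold change below 2, with an adjusted p of 9.79e-05.

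The ADY2 homolog PAS_chr2-1_0874, which also resembles ATO2 and ATO3 of S. cerevisiae, had the largest fold change of the 5. It had 215.05, 245 and 268 CPM in replicates 1, 2 and 3 of the control strain and 739, 682 and 409 CPM in those of the flocculation strain. Here replicate 3 was the lowest flocculating culture, yet it was still 1.53 times the highest control culture. The log2 fold change was 1.33 with a standard error of 0.28 and an adjusted p of 0.000178 by the same edgeR test. It was 1.55 without replicate 3 of the flocculation strain.

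PAS_chr2-1_0649 is the acetate transporter for which the study names no S. cerevisiae homolog. Its annotation, as needed for sporulation, is the same as that of the ADY2 homolog PAS_chr1-1_0418. PAS_chr2-1_0649 had about as many reads as the JEN1 homolog, fewer in 4 libraries and more in the others. It had 55.7, 72.8 and 64.4 CPM in the control cultures and 188, 166 and 122 CPM in replicates 1, 2 and 3 of the flocculation strain. The order of the flocculating cultures was the same as for PAS_chr2-1_0874. The log2 fold change was 1.30 with a standard error of 0.22 and an adjusted p of 4.94e-05 by the same edgeR test, and it was 1.46 without replicate 3 of the flocculation strain.

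The ADY2 homolog PAS_chr1-1_0418, annotated as an acetate transporter needed for sporulation, was barely expressed. It had 64, 70 and 96 reads in the control libraries and 172, 139 and 95 reads in replicates 1, 2 and 3 of the flocculation strain. After scaling these were 5.50, 5.52 and 8.26 CPM against 12.8, 11.995 and 9.20 CPM, so the strains overlapped in raw reads, and after scaling their nearest cultures were only 1.11 times apart. Counting error alone is between 7.62% and 12.5% of each value. The log2 fold change was 0.83 with a standard error of 0.24 and an adjusted p of 0.00733 by the same edgeR test, so the gene passed the adjusted p but not the 2-fold limit. Without replicate 3 of the control strain, its highest control culture, the log2 fold change was 1.04 and the gene passed both thresholds.

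**Figure D2:**
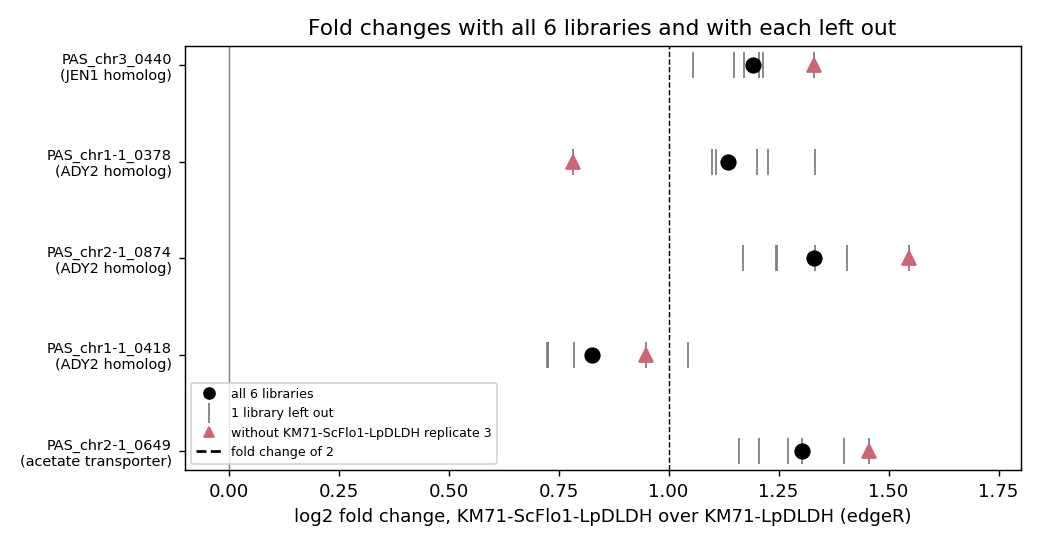
Log2 fold changes of the 5 genes, KM71-ScFlo1-LpDLDH over KM71-LpDLDH, from edgeR with all 6 libraries (black points) and with 1 library left out in turn (grey ticks), with the fit without replicate 3 of KM71-ScFlo1-LpDLDH marked by a red triangle and a fold change of 2 by a dashed line. Leaving out that culture moved PAS_chr1-1_0378 down to 0.78 and the other 4 genes up.

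How the reads divided among the 5 genes does not depend on the scaling of libraries. It is a share of reads and not of transcripts, since coding lengths were not analysed here. In every library PAS_chr1-1_0378 came first and PAS_chr2-1_0874 next, and PAS_chr1-1_0418 came last with at most 0.735% of the reads of the 5 genes. The JEN1 homolog and PAS_chr2-1_0649 changed places, with the JEN1 homolog ahead in 4 of the 6 libraries, so their order was not resolved. Wilson intervals at 95%, which cover counting error only, reached at most 0.825 percentage points to either side of a share.

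The share of PAS_chr1-1_0378 was 70.4%, 65.3% and 63.5% in the control cultures and 51.5%, 58.0% and 78.1% in replicates 1, 2 and 3 of the flocculation strain. It lay below every control culture in replicates 1 and 2 of the flocculation strain and above every control culture in replicate 3. The mean share differed by -3.86 percentage points (standard error 8.27), and a two-sided exact permutation test gave p = 0.8 (adjusted p = 1 over the 5 genes). Leaving out replicate 3 of the flocculation strain changed this difference to -11.7 points, for which 3 cultures against 2 cannot give a p below 0.2.

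The share of PAS_chr2-1_0874 moved the other way, from 18.4%, 21.9% and 23.8% in the control cultures to 32.6% and 27.4% in replicates 1 and 2 of the flocculation strain but 13.5% in replicate 3. The JEN1 homolog held 6.02%, 5.75% and 6.17% of the reads in the control cultures and 7.04%, 7.38% and 4.05% in the flocculating cultures. None of the 5 genes had a share that separated the strains, and the exact p-values ran from 0.5 to 1, where 3 cultures against 3 cannot give a p below 0.1. The plot of shares by culture shows replicates 1 and 2 of the flocculation strain with less PAS_chr1-1_0378 and more PAS_chr2-1_0874 than the control cultures, and replicate 3 with the reverse.

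**Figure D3:**
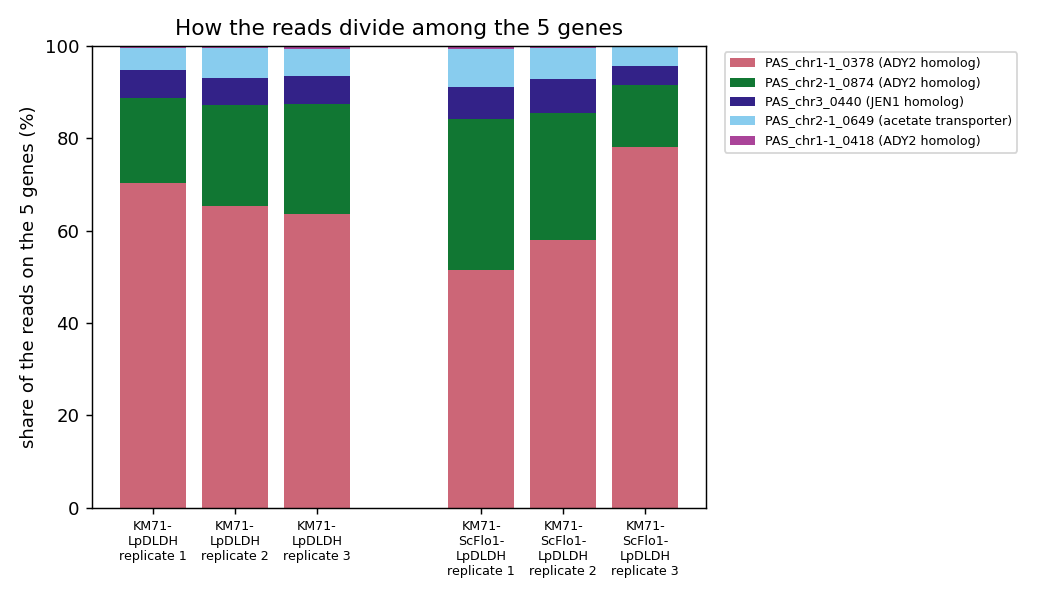
Stacked bars of the percentage of the reads on the 5 genes that fell on each gene, for each of the 3 cultures of KM71-LpDLDH and of KM71-ScFlo1-LpDLDH. The share of PAS_chr1-1_0378 ranges from 63.5% to 70.4% in the control cultures and from 51.5% to 78.1% in the flocculating cultures.

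The 5 genes together had 1172, 1116 and 1124 CPM in the control cultures and 2267, 2484 and 3033 CPM in replicates 1, 2 and 3 of the flocculation strain. The ratio of the means was 2.28, a log2 ratio of 1.19. Without replicate 3 of the flocculation strain the log2 ratio was 1.06. Because PAS_chr1-1_0378 supplied most of these reads, replicate 3 had the highest sum. The other 4 genes alone had 347, 387 and 410 CPM in the control cultures and 1100, 1042 and 663 CPM in the flocculating cultures, with replicate 3 the lowest of its strain.

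The cultures of the flocculation strain therefore held a split among the 5 genes, which rested on replicate 3. In replicate 3, PAS_chr1-1_0378 was 1.83 times its geometric mean level in replicates 1 and 2, while PAS_chr2-1_0874 was at 0.577 times, PAS_chr2-1_0649 at 0.690 times, the JEN1 homolog at 0.719 times and PAS_chr1-1_0418 at 0.745 times theirs. Replicate 3 was the lowest culture of its strain for 46.3% of all tested genes and the highest for 38.6%, so an extreme place there was common. Over all tested genes, 3.54% differed by more than 1.5 times between replicate 3 and replicates 1 and 2, and 2 of the 5 genes did, PAS_chr1-1_0378 and PAS_chr2-1_0874. For this difference PAS_chr1-1_0378 lay at percentile 99.7 of all tested genes and PAS_chr2-1_0874 at percentile 0.537. In the control strain no such split stood out. The SD of PAS_chr1-1_0378 between control cultures was 0.11 on the log2 scale, at percentile 51.0 of all tested genes. In control replicate 1 it was at 0.13 above its control mean, and the JEN1 homolog at 0.05 was on the same side. Deviations there were -0.17 for PAS_chr2-1_0874, -0.20 for PAS_chr2-1_0649 and -0.19 for PAS_chr1-1_0418. In control replicate 2 the signs were also mixed. There PAS_chr1-1_0378 (-0.05), the JEN1 homolog (-0.08) and PAS_chr1-1_0418 (-0.19) lay below their means, PAS_chr2-1_0874 (0.02) and PAS_chr2-1_0649 (0.19) above. In control replicate 3 PAS_chr1-1_0378 was at -0.08 and the others lay above their means. The deviations of a gene within a strain cancel out, so these cultures are not independent views of a pattern. The widest deviation among control cultures was that of PAS_chr1-1_0418 in replicate 3, at 0.38.

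**Figure D4:**
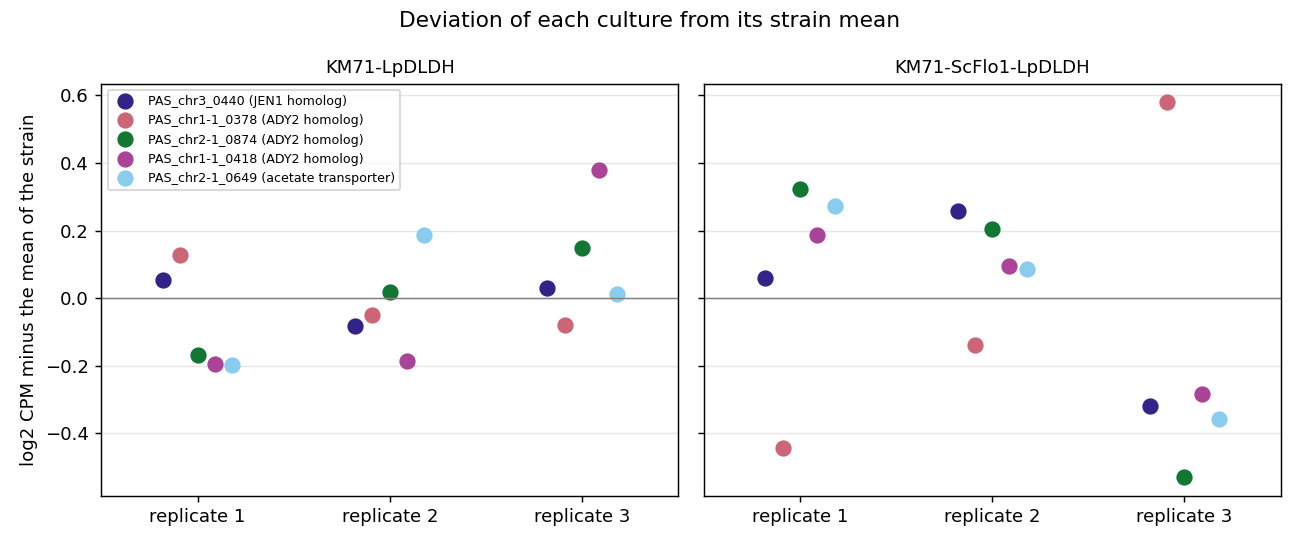
Log2 CPM of each culture minus the mean of its strain for the 5 genes, with KM71-LpDLDH in the left panel and KM71-ScFlo1-LpDLDH in the right panel. In replicate 3 of KM71-ScFlo1-LpDLDH, PAS_chr1-1_0378 lies 0.58 above its strain mean and the other 4 genes lie between 0.28 and 0.53 below theirs.

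The spread between cultures was larger in the flocculation strain for 4 of the 5 genes, PAS_chr1-1_0418 being the exception. For PAS_chr1-1_0378 the SD of log2 CPM was 0.11 in the control strain, at percentile 51.0 of all tested genes, and 0.52 in the flocculation strain, at percentile 99.1. For PAS_chr2-1_0874 it was 0.16 and 0.46, at percentiles 70.8 and 98.5. For the JEN1 homolog it was 0.07 and 0.29, at percentiles 27.3 and 92.7. Over all tested genes the median SD was 0.11 in both strains. With 3 cultures in each strain and the strains in separate clusters, no correlation between genes across cultures was computed.

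Ratios between the genes, from which the scaling cancels, compare how far each of them changed. Of the 10 pairs, 2 had ratios that separated the strains, and both involve PAS_chr1-1_0418. The reads of PAS_chr2-1_0874 relative to PAS_chr1-1_0418 in the flocculation strain were 1.37 times those of the control strain (a log2 difference of 0.46, standard error 0.18), and those of PAS_chr1-1_0418 relative to PAS_chr2-1_0649 were 0.729 times those of the control strain in the flocculation strain (a log2 difference of -0.46, standard error 0.22). Both had an exact permutation p of 0.1, the smallest possible, and an adjusted p of 0.5 over the 10 pairs. No pair could reach the threshold, so the test cannot decide whether any 2 of the genes differ in fold change.

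PAS_chr2-1_0874 and PAS_chr2-1_0649 kept the most even ratio of the 10 pairs. There were 3.86, 3.36 and 4.16 reads on PAS_chr2-1_0874 for each read on PAS_chr2-1_0649 in the control cultures and 3.92, 4.12 and 3.36 in the flocculating cultures. The highest of these ratios was 1.24 times the lowest, although each gene changed by more than 2-fold between the strains. The log2 difference between the strains was 0.00 with a standard error of 0.13 and an exact permutation p of 0.9. By contrast, PAS_chr1-1_0378 had 3.84, 2.98 and 2.66 reads for each read on PAS_chr2-1_0874 in the control cultures and 1.58, 2.12 and 5.79 in the flocculating cultures. That is a 3.66-fold range, and both of its ends were flocculating cultures.

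The JEN1 homolog and PAS_chr2-1_0649 also stayed close, with ratios of 1.27, 0.882 and 1.08 in the control cultures and 0.848, 1.11 and 1.01 in the flocculating cultures. Their log2 difference between the strains was -0.11 with a standard error of 0.19. The plot of ratios between pairs shows the even ratios beside the uneven one.

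**Figure D5:**
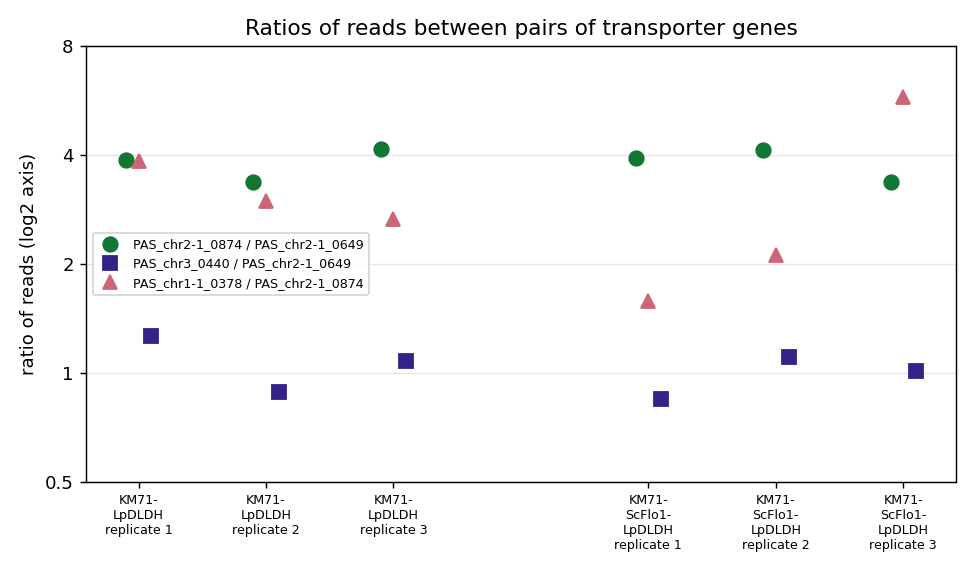
Ratio of reads (log2 axis) in each culture for 3 of the 10 pairs of genes, chosen after their values were seen. PAS_chr2-1_0874 over PAS_chr2-1_0649 (green) stays between 3.36 and 4.16, the JEN1 homolog PAS_chr3_0440 over PAS_chr2-1_0649 (dark blue) between 0.848 and 1.27, and PAS_chr1-1_0378 over PAS_chr2-1_0874 (red) runs from 1.58 to 5.79.

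The likeness of 2 genes was measured as the root mean square difference of their log2 CPM over the 6 libraries, each gene centred on its own mean. By this measure PAS_chr2-1_0649 ranked 3 of 5028 other genes in likeness to PAS_chr2-1_0874, at a distance of 0.13 on the log2 scale, and the JEN1 homolog ranked 24 at 0.19. PAS_chr1-1_0378 ranked 1660, at 0.60. Seen from PAS_chr2-1_0649, PAS_chr2-1_0874 ranked 16. Seen from the JEN1 homolog, PAS_chr2-1_0874 ranked 89, PAS_chr2-1_0649 ranked 113, PAS_chr1-1_0418 ranked 359 and PAS_chr1-1_0378 ranked 1309. These places rest largely on the strain difference itself. On deviations from the strain means alone, PAS_chr2-1_0649 ranked 46 in likeness to PAS_chr2-1_0874, the JEN1 homolog 286 and PAS_chr1-1_0378 5001. From PAS_chr2-1_0649, PAS_chr2-1_0874 then ranked 318. Seen from the JEN1 homolog, PAS_chr2-1_0874 then ranked 1878, PAS_chr2-1_0649 ranked 2227 and PAS_chr1-1_0418 ranked 2638. Such ranks depend on the gene they are seen from. The same distance of 0.18 ranked 286 from PAS_chr2-1_0874 and 1878 from the JEN1 homolog. The single nearest gene to each of the 5 had no annotation in the sources used here and is not named.

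Genes with adjacent identifier numbers were examined because positions and strand were not analysed here, and without strand the reads of overlapping neighbours cannot be told apart. In the study's list PAS_chr2-1_0649 and PAS_chr2-1_0874, the pair with the most even ratio, have consecutive GenBank record numbers. Their identifier numbers are far apart, so the genes examined here may not be their neighbours. Whether adjacent numbers of either kind are adjacent on the chromosome, or whether any of the 5 genes lie beside each other, was not tested. Of the 8 adjacent genes in the table, 2 passed both thresholds, against 16.4% of all tested genes, so nothing is read from this count. In PAS_chr1-1_0377 the control strain had 74.5 ± 4.71 CPM and the flocculation strain 161 ± 41.3 CPM (SD, n = 3), which is a log2 fold change of 1.11 (adjusted p = 0.000164 in the same edgeR fit). Its own level in replicate 3 of the flocculation strain was 1.48 times that in replicates 1 and 2, in the same direction as PAS_chr1-1_0378. There were between 9.20 and 11.6 reads on PAS_chr1-1_0378 for each read on PAS_chr1-1_0377 in the 6 libraries. PAS_chr2-1_0650, adjacent in number to PAS_chr2-1_0649, went from a mean (SD, n = 3) of 6.39 ± 0.796 to one of 13.1 ± 2.08 CPM. That is a log2 fold change of 1.04 (adjusted p = 0.000758 by the same test). PAS_chr2-1_0649 had 7.90 to 13.5 reads for each read on it. The genes adjacent to the JEN1 homolog were not analysed here.

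Other genes of weak acid, polyamine, proton or channel transport were taken from the same list of the study, which was also chosen on these libraries. The iron and zinc transporters of that list, all given there as upregulated, were left out. Of the 10 genes taken, 2 rose and 5 fell at both thresholds, against 8.41% and 7.99% of all tested genes. Their median log2 fold change was -1.50, which does not describe all transporters of the list. The 2 that rose were PAS_chr4_0784, a homolog of the glycerol channel gene FPS1, with a log2 fold change of 1.15, and PAS_chr1-1_0002, the H+-ATPase that pumps protons out of the cell, with a log2 fold change of 1.06.

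The 3 homologs of ESBP6, which resemble mammalian monocarboxylate permeases, fell, with log2 fold changes of -2.33, -2.002 and -3.47 for PAS_chr2-1_0309, PAS_chr3_0278 and PAS_chr1-4_0132. The study listed these genes as lower and the JEN1 homolog as higher in these same libraries, so a ratio between them had to differ and is given as a description. For each read on the 3 genes together, the JEN1 homolog had 0.0378, 0.0431 and 0.0368 reads in the control cultures and 0.706, 0.782 and 0.530 reads in the flocculating cultures. The other 2 genes that fell were PAS_chr1-1_0398, a PDR12 homolog, with a log2 fold change of -2.01, and PAS_chr1-4_0431, a homolog of TPO2 and TPO3, with -2.34. PDR12 encodes an exporter of weak acid anions in S. cerevisiae, and TPO2 and TPO3 encode polyamine exporters. The remaining 3 genes passed the adjusted p alone, with log2 fold changes of 0.79 for PAS_chr4_0832, 0.40 for PAS_chr4_0836 and -0.99 for PAS_chr1-3_0215.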

How the data were processed

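The 6 libraries (3 cultures of each strain) came from sequencing of messenger RNA. In the methods, fastp filtered the reads, HISAT2 mapped them to the GS115 genome and HTSeq-count assigned them to genes. For these tools neither versions nor the use of strand is given in the sources used here. The table the authors deposited holds read counts. Its name calls them normalized, but they were treated as raw, because every value is whole, totals vary between libraries and DESeq2 size factors run from 0.871 to 1.15.

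Of the genes, 5029 had a mean of 10 or more reads and 11 did not and were left out. Counts were scaled by TMM and tested with edgeR 4.0.16 (quasi-likelihood, prior count 0.125, R 4.3.3). A call needed an adjusted p (Benjamini-Hochberg) below 0.05 and more than a fold of 2, the limits in the study's methods. At these limits 825 genes passed here, and 816 with DESeq2, the study's tool. The study reported far fewer genes, and the reason for the difference was not tested. The fit was checked on simulated counts. Standard errors come from log2 CPM with a prior count of 2. Shares and ratios used raw reads and two-sided exact permutation tests over cultures. The alternatives were other scalings, filters and prior counts, DESeq2 1.42.0, limma 3.58.1, a block for the replicate number, and fits without 1 library.

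The genes, lists and tests were chosen with earlier results of these data known. The rule for genes named in the text took the 5 transporter genes, adjacent identifiers past both thresholds, 10 further genes of the study's list and annotated genes of lactate and acetate metabolism. The last could not be found, since 0 identifiers of the reference gene table, which is for another assembly, match those of the counts. For the same reason no lengths, positions or sequences were used.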

Additional observations from a re-analysis of the deposited data

How the results depend on the processing

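The direction of all 5 genes was the same under every scaling, filter, prior count and tool tried and without any 1 library. With 825 genes passing both thresholds, the alternatives gave 794 to 886, except 3227 without a fold limit and 166 at a fold above 4, where 5 and 0 of the 5 transporter genes passed. Without 1 library, 3 to 5 of them passed, PAS_chr1-1_0378 having log2 fold changes of 0.78 to 1.33 and PAS_chr1-1_0418 of 0.72 to 1.04. Scaling by total counts moved the median change over the whole table from 0.02 to 0.13 (log2) and gave 522 higher of 862 calls, against 423 of 825.

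Whether replicate numbers pair the cultures is not stated in the sources used here. Deviations of same-numbered libraries correlated at -0.13, 0.05 and 0.11, and those of differently numbered libraries at -0.25 to 0.28. These values cannot settle it. With a replicate block 829 genes passed, 4 of the transporter genes among them, and the log2 fold change of the JEN1 homolog was 1.17.

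The exact tests could not decide whether shares or ratios differ between the strains. With 3 cultures against 3 they cannot give a p below 0.1, and with 3 against 2 none below 0.2. Both limits lie above the threshold for the adjusted p, so nothing is concluded from these tests. The signs of 4 shares and 7 ratios turned when 1 library was left out. The difference in share ran from -0.43 to 1.23 points for the JEN1 homolog, -11.7 to 1.67 for PAS_chr1-1_0378, -0.90 to 8.64 for PAS_chr2-1_0874 and -0.33 to 1.82 for PAS_chr2-1_0649. Among the 4 genes without PAS_chr1-1_0378, an alternative chosen after seeing the data, it was -1.07 for the JEN1 homolog. The log2 difference in the ratio of the JEN1 homolog ran from -0.15 to 0.55 to PAS_chr1-1_0378, -0.22 to 0.014 to PAS_chr2-1_0874 and -0.25 to 0.012 to PAS_chr2-1_0649. For PAS_chr1-1_0378 it ran from -0.77 to 0.16 to PAS_chr2-1_0874, -0.19 to 0.56 to PAS_chr1-1_0418 and -0.68 to 0.14 to PAS_chr2-1_0649, and for PAS_chr2-1_0874 to PAS_chr2-1_0649 from -0.082 to 0.089. The cause was not tested. Shares by coding length were not run. Counting error limits PAS_chr1-1_0418 most.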

Other observations

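The same 10 genes of weak acid, polyamine, proton or channel transport were also compared in replicate 3 of the flocculation strain. Over these 10 genes, the level in replicate 3 was between 0.918 and 1.54 times that in replicates 1 and 2. The FPS1 homolog PAS_chr4_0784 was at 1.01 times and the H+-ATPase PAS_chr1-1_0002 at 0.934 times. The gene beyond 1.5 times was PAS_chr1-3_0215, a homolog of TPO2 and TPO3 annotated as a spermine transporter, at 1.54 times, in the same direction as PAS_chr1-1_0378. Whether these differences within a strain exceed chance was not tested.

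The division of reads was also described among the 4 genes left when PAS_chr1-1_0378 is set aside, a choice made after seeing the data. PAS_chr2-1_0874 took between 61.7% and 67.2% of the reads of these 4 genes in each of the 6 libraries, and the JEN1 homolog between 14.5% and 20.3%. PAS_chr1-1_0418 took 1.58%, 1.43% and 2.01% in the control cultures and 1.17%, 1.15% and 1.39% in the flocculating cultures, the only share of the 4 that separated the strains (exact permutation p = 0.1, the smallest possible, and adjusted p = 0.4 over the 4 genes).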
